A study of Mus musculus with 2 samples.

Results

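Aldehyde dehydrogenase, alcohol dehydrogenase, aldo-keto reductase and retinol dehydrogenase genes were examined in the mammary gland of mice at postnatal week 6, in 1 library of Mir212/132ILN/ILN mice and 1 library of wild-type mice, both C57BL/6. The ILN/ILN genotype carries an IRES-LacZ-Neo cassette inserted at the locus of miR-212 and miR-132. Neither microRNA was analysed here, so nothing in these values checks the genotype labels. The sources used here do not say whether a library came from 1 animal or from pooled animals. The genes were those whose symbol is Aldh, Adh, Akr or Rdh followed by a digit, 55 of the 21113 genes in the deposited tables. The group was selected on the high ILN/ILN over wild-type ratios of Aldh3a1, Adh7 and Akr1c18 in these libraries, so the comparison below describes values that also chose it. With 1 library per genotype no difference has a replicate check, and no test was made.

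These enzymes move molecules between alcohol, aldehyde and acid. In the retinoid branch, alcohol dehydrogenases and some retinol dehydrogenases oxidise retinol to retinal, while other retinol dehydrogenases reduce retinal. Aldh1a enzymes oxidise retinal to retinoic acid, the ligand of nuclear receptors that direct differentiation in epithelia and fat. In the aldehyde branch, aldehyde dehydrogenases and aldo-keto reductases clear aldehydes from alcohol, sugars, amino acids and lipid peroxidation, or carry out single steps of amino acid and folate metabolism. In the steroid branch, Akr1c enzymes reduce keto groups of steroid hormones. By symbol, 19 genes were assigned to the retinoid, 27 to the aldehyde and 9 to the steroid branch.

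Each library gave a deposited value per gene, an FPKM-like level scaled for gene length and library size, here called the value. The fragments behind it could be read back as whole numbers, 42953129 in all in the ILN/ILN library and 46133338 in the wild-type library. A fold is the ratio of a gene's fragments after scaling by these totals, with a 95% interval that covers counting error only and not differences between animals. A log2 ratio is taken on value + 1, ILN/ILN over wild type, which understates the difference of low genes. A gene counted as measured when its value reached 1 in one of the libraries or in both. For all 55 genes the deposited value came from the fragments in both libraries.

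The promoters of 4 genes from the alcohol dehydrogenase and Akr1c clusters are shown because each pair joins a gene with a high ratio between the libraries to its neighbour. The neighbour of Adh7, Adh1, was lower in the ILN/ILN library, and the neighbour of Akr1c18, Akr1c14, was higher. Each runs from 250 bases before to 50 bases after the RefSeq start in build GRCm38.p6, 5′ to 3′, and capitals mark a match on either strand to any of 3 motifs, TGACNNNGC, GCGTG and AGGTCA. RefSeq promoters were matched for 42 of the 55 genes. Aldh3a1 was not among them.
Adh7 (chr3:138217523-138217822, plus strand): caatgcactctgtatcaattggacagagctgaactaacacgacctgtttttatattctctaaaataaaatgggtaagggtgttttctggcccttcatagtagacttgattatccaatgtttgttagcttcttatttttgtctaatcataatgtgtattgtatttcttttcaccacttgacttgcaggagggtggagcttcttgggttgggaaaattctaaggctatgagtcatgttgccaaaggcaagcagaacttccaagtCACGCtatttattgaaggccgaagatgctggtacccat
Adh1 (chr3:138277335-138277634, plus strand): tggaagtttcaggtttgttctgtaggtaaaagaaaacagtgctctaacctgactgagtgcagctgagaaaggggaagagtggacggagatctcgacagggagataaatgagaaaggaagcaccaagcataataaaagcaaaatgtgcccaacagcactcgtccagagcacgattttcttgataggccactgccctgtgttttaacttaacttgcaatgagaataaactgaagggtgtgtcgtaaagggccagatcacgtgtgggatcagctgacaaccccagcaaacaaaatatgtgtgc
Akr1c18 (chr13:4150597-4150896, minus strand): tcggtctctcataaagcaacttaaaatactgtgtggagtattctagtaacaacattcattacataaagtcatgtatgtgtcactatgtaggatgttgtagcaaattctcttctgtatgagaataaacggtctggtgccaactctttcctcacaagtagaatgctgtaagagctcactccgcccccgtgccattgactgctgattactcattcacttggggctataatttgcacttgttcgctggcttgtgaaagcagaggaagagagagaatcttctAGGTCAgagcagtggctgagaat
Akr1c14 (chr13:4059341-4059640, plus strand): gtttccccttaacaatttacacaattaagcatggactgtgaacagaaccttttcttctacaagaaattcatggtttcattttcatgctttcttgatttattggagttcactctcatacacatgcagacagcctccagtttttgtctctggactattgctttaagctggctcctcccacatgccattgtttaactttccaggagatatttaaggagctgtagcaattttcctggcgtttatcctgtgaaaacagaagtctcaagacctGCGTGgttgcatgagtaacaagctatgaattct

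TGACNNNGC is the core of the antioxidant response element, GCGTG that of the xenobiotic response element, and AGGTCA a half-site of nuclear receptors. The promoters of Adh7 and Akr1c14 each held 1 GCGTG match, and that of Akr1c18 held 1 AGGTCA match. The Adh1 promoter held none of the 3 motifs in this window. GCGTG occurred in 32.4% of all 32851 promoters of this length and in 29.8% of the 47 promoters of the group. AGGTCA occurred in 16.3% of all promoters and in 27.7% of those of the group, and TGACNNNGC in 12.4% and 10.6%. A match is a description of the letters and not a binding site.

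The tissue label was read against marker genes of the cells a dissected gland holds. White adipocyte markers summed to 79307 in the ILN/ILN and 87840 in the wild-type library, with all 12 present in both. Compared with wild type, 9 of the 12 were higher and 3 lower in ILN/ILN (median log2 ratio 0.16). The lower sum came mainly from Cfd, which had 25466 in the ILN/ILN and 33953 in the wild-type library. Of 16 luminal epithelium markers in the table, 15 were lower in the ILN/ILN library, and their sum was 12.5 in the ILN/ILN and 58.7 in the wild-type library. Esr1, the exception, had 11.2 in the ILN/ILN and 8.90 in the wild-type library. Krt8, Cldn7, Areg, Elf5, Elf3 and Pgr had 0 fragments in the ILN/ILN library, as did the basal keratin genes Krt5, Krt14 and Krt17, while all 9 had fragments in the wild-type library. Of 8 basal epithelium markers, 7 were lower and 1, Oxtr, was higher in the ILN/ILN library. Their sums were 59.7 in the ILN/ILN and 77.9 in the wild-type library. The 5 measured ones, Acta2, Myh11, Oxtr, Trp63 and Cnn1, all lay within 1.5-fold on value + 1. Most of both sums came from Acta2, with 43.4 in the ILN/ILN and 56.5 in the wild-type library. Krt5, Krt14 and Krt17, without a fragment in the ILN/ILN library, had 78, 62 and 59 wild-type fragments but added little to the sums. The sums therefore do not show that basal epithelium was near equal between the libraries. All 7 B cell, 7 T cell, 8 macrophage and 5 erythroid markers were lower in the ILN/ILN library. B cell markers summed to 35.0 in the ILN/ILN and 187 in the wild-type library, and T cell markers to 20.5 in the ILN/ILN and 60.6 in the wild-type library. Macrophage markers summed to 1263 in the ILN/ILN and 1980 in the wild-type library. Of 7 endothelial markers 5 were higher in the ILN/ILN library, with sums of 149 in the ILN/ILN and 126 in the wild-type library. In bulk tissue, fewer cells of a type and less RNA per cell cannot be told apart, and the part these shifts have in the values below was not tested.

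Of the 55 genes, 35 were measured. Of these, 3 were at least 1.5-fold higher in the ILN/ILN library on the value + 1 scale, against 1.90% of all 11556 measured genes, and the same 3 passed 2-fold, against 0.407% of all measured genes. They were Aldh3a1, Adh7 and Akr1c18, whose ratios entered the choice of the group. None was 1.5-fold lower, against 5.39% of all measured genes, of which 1.72% were at least 2-fold lower. On this scale the other 32 measured genes lay within 1.5-fold. The log2 ratio was above 0 in 26 genes and below 0 in 9, against 52.3% of all measured genes above 0. The median log2 ratio was 0.11, beside 0.02 for all measured genes. Both figures of the group include the 3 genes that chose it. Without them, 23 of the other 32 were above 0 and 9 below, with a median of 0.084. By fragments, without a pseudocount, 4 measured genes were at least 1.5-fold higher and 1 was lower, against 2.94% and 7.60% of all genes with a fragment ratio. Akr1c14 and Rdh12 were the additional genes.

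**Figure D1:**
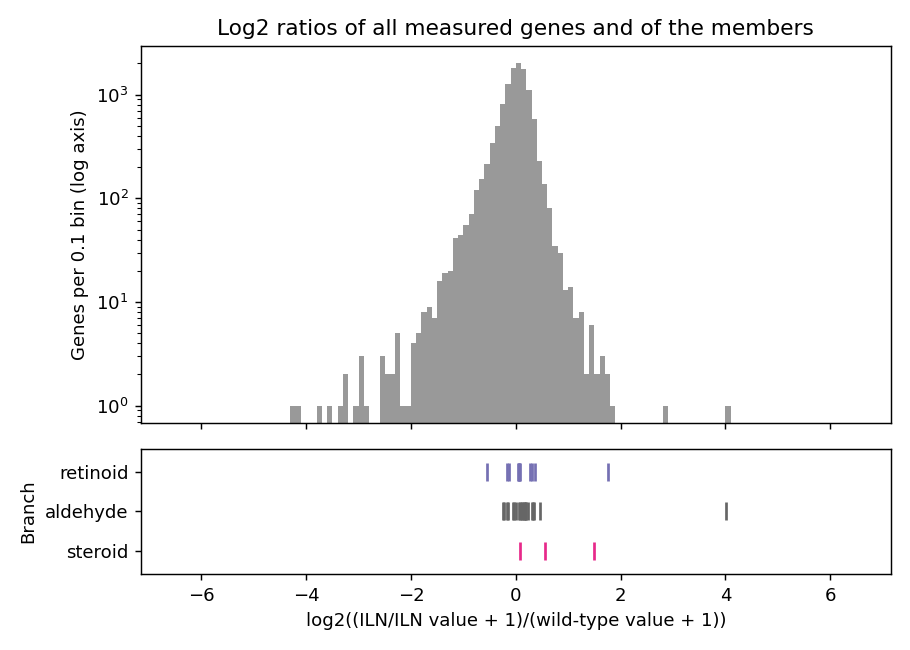
Upper panel, number of measured genes (log axis) per bin of the log2 ratio of value + 1, ILN/ILN over wild type. Lower panel, each vertical mark is 1 of the 35 measured genes of the group, by branch. Aldh3a1 at 4.02, Adh7 at 1.76 and Akr1c18 at 1.48 stand to the right, and the other marks lie between -0.55 and 0.56.

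Aldh3a1 encodes an aldehyde dehydrogenase known for its abundance in the cornea and stomach, where it oxidises lipid-derived and aromatic aldehydes. Its value was 20.8 in the ILN/ILN library and 0.347 in the wild-type library, from 1396 and 25 fragments. This put the gene at 60.0-fold higher (40.5 to 93.0), the highest log2 ratio of all measured genes at 4.02. In the order of levels it was gene 3249 in the ILN/ILN library and gene 12881 in the wild-type library. None of the 50-base windows of its longest annotated protein-coding transcript occurred in a transcript of another gene. The table lists 2 isoforms of Aldh3a1, of which 1 was measured separately.

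Aldh3a2, the adjacent gene on chromosome 11, encodes the fatty aldehyde dehydrogenase of the endoplasmic reticulum. It had 18.3 in the ILN/ILN and 15.4 in the wild-type library, 1.19-fold higher (1.12 to 1.26). The next genes with a row on each side were chosen after the value of Aldh3a1 was seen. Usp22, a deubiquitinase gene, had 11.2 in the ILN/ILN and 10.5 in the wild-type library, 1.07-fold higher (1.01 to 1.13). Beyond it, Tnfrsf13b, a receptor gene of B cells, had 19 fragments in the ILN/ILN and 85 in the wild-type library. Its fold, ILN/ILN over wild type, was 0.240 (0.138 to 0.398). On the far side of Aldh3a2, the organic cation transporter genes Slc47a2, with 10 and 1 fragments, and Slc47a1, with 24 and 27 fragments in the ILN/ILN and wild-type libraries, were under the minimum for measured genes. By fragments Slc47a2 was 10.7-fold higher (1.53 to 466), with a wide interval because of its few fragments. Among the measured genes around Aldh3a1, none had a ratio near that of Aldh3a1. Mir212 and Mir132 also lie on chromosome 11 in the RefSeq annotation. Their distance from Aldh3a1 was not computed, and the part of the altered locus in the value of Aldh3a1 was not tested.

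In the retinoid branch 11 of 19 genes were measured, with a median log2 ratio of 0.06. This median was 0.22 with a minimum value of 5 and 0.01 with upper quartile scaling. Adh1, the class I alcohol dehydrogenase that oxidises ethanol and retinol, was the most abundant of them. Its value was 176 in the ILN/ILN and 199 in the wild-type library, 1.13-fold lower (1.10 to 1.16), with 10112 and 12287 fragments. Adh1 made up 66.2% of the branch's summed value in the ILN/ILN library and 74.6% in the wild-type library. The sums of the whole branch were close, at 265 in the ILN/ILN and 266 in the wild-type library.

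Adh7, the class IV alcohol dehydrogenase, is known for retinol oxidation in the epithelium of the stomach and other surfaces. Its value was 20.9 in the ILN/ILN and 5.46 in the wild-type library, from 1895 and 531 fragments. It was 3.83-fold higher (3.48 to 4.23), number 5 in the order of log2 ratios of all measured genes. Adh7 and Adh1 are adjacent on chromosome 3 with no protein-coding gene between them, and they differed in opposite directions. No 50-base window of the Adh7 transcript was shared with another gene. Markers of skin keratinocytes, a surface epithelium that a dissected gland could hold, were lower in sum. Of 9 listed in the data, 5 were lower and 3 higher in the ILN/ILN library, with Ivl, Dsc1 and Dsg1a at 0 there and Krt1 and Dsg1a at 0 in the wild-type library. The list summed to 23.0 in the ILN/ILN and 50.1 in the wild-type library. The lower sum came mainly from Sbsn, which had 21.2 in the ILN/ILN and 45.15 in the wild-type library. Only 3 of the 9 were measured, and 1 of these, Calml3, was higher, with 1.015 in the ILN/ILN and 0.762 in the wild-type library. The part of skin in the value of Adh7 was not tested.

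The other genes of the alcohol dehydrogenase cluster were either near equal or hardly detected. Adh5, which oxidises glutathione-bound formaldehyde, had 72.7 in the ILN/ILN and 69.7 in the wild-type library, 1.04-fold higher (1.002 to 1.09). Adh4 had 2 fragments in each library, and Adh6a had 2 in the ILN/ILN and 0 in the wild-type library. The pseudogene Adh6-ps1 had 38 and 29 fragments in the ILN/ILN and wild-type libraries. Outside the cluster, Metap1 and Eif4e, the nearest non-Adh genes with a row past Adh5, were 1.26-fold (1.16 to 1.37) and 1.17-fold higher (1.04 to 1.30). On the other side, Rg9mtd2 was at 0.997 in the ILN/ILN and 1.16 in the wild-type library, and 4930579F01Rik had no fragments. These neighbours were chosen after the value of Adh7 was seen.

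**Figure D2:**
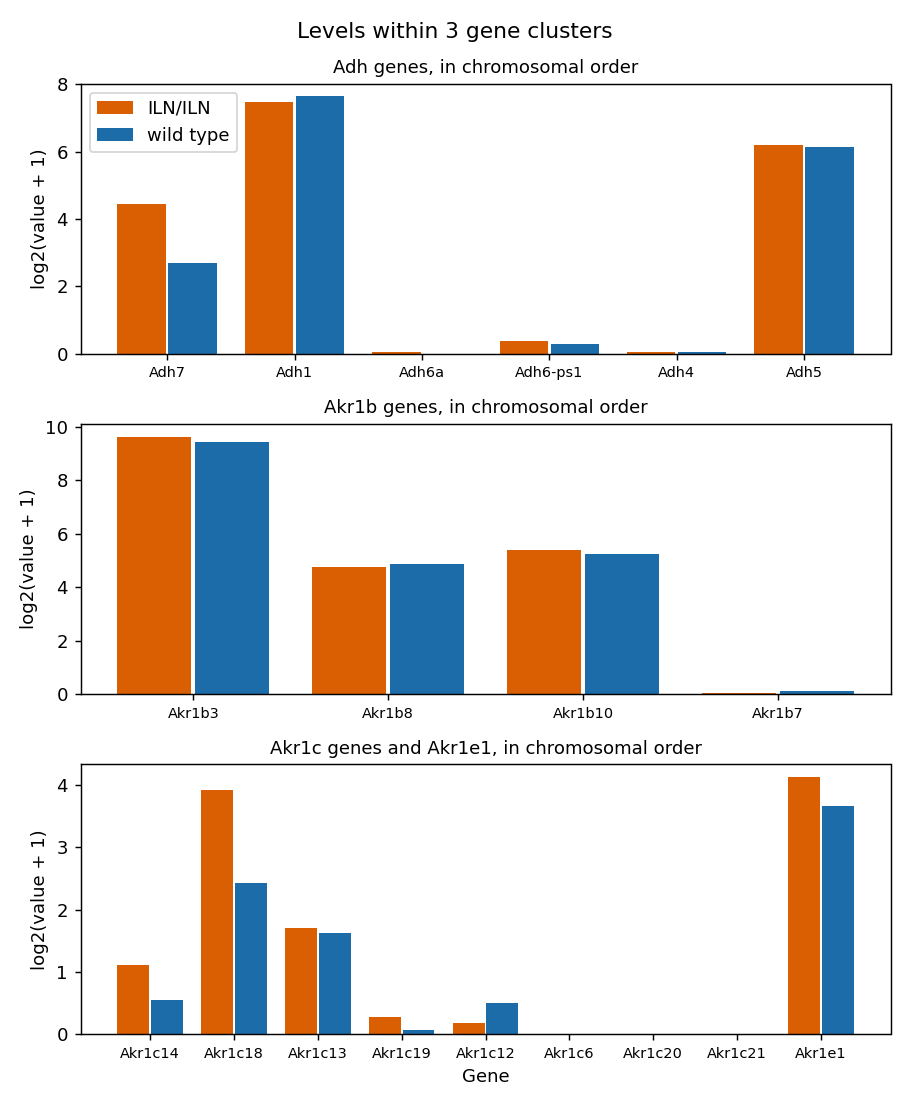
Bars give log2(value + 1) of each gene in the ILN/ILN library (orange) and the wild-type library (blue) for 3 gene clusters, with genes in chromosomal order. Adh7 is higher in the ILN/ILN library while Adh1 and Adh5 of the same cluster differ by less than 1.5-fold, the 3 measured Akr1b genes also differ by less than 1.5-fold, and Akr1c18 and Akr1c14 are higher in the ILN/ILN library.

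The 3 Aldh1a genes that make retinoic acid were all measured. Aldh1a1 had 30.3 in the ILN/ILN and 28.9 in the wild-type library, 1.05-fold higher (0.992 to 1.11), with an interval that included 1. Aldh1a3, which is also used as a marker of luminal progenitor cells of the mammary epithelium, had 15.0 in the ILN/ILN and 11.4 in the wild-type library, 1.32-fold higher (1.24 to 1.40). Aldh1a2, the main retinoic acid-forming enzyme of the mouse embryo, had 4.44 in the ILN/ILN and 3.41 in the wild-type library, 1.30-fold higher (1.13 to 1.497). The direction of Aldh1a3 was opposite to that of 15 of the 16 luminal markers.

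Retinol dehydrogenase genes were low. None of the 13 reached a value of 5, and 6 were measured. Rdh10, which makes retinal from retinol in the embryo, had 3.90 in the ILN/ILN and 3.65 in the wild-type library, and Rdh11, a microsomal retinal reductase, 4.53 and 3.56. Rdh11 was 1.27-fold higher (1.08 to 1.51). Rdh13, a mitochondrial member, had 4.26 in the ILN/ILN and 4.06 in the wild-type library, Rdh14 had 3.78 in the ILN/ILN and 3.65 in the wild-type library, and Rdh5, known from the visual cycle, had 1.96 in the ILN/ILN and 2.22 in the wild-type library. The intervals of these 3 and of Rdh10 included 1. Of the Rdh5 windows 17.3% are shared with the overlapping gene Bloc1s1, so its fragments are uncertain. Rdh12, a retinal reductase of photoreceptors, had 27 fragments in the ILN/ILN and 79 in the wild-type library, 2.72-fold lower (1.74 to 4.39). It had the lowest log2 ratio of the group, at -0.55, and was measured only through its value of 1.02 in the wild-type library.

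The remaining Rdh genes of chromosome 10 had few fragments or none. Rdh9 had 23 fragments in the ILN/ILN and 28 in the wild-type library, but 92.3% of its 50-base windows also occurred in transcripts of other genes, so its fragments are uncertain. Rdh1 had 1 and 10, and Rdh16 had 2 and 1 fragments in the ILN/ILN and wild-type libraries. The pseudogene Rdh18-ps had 2 fragments in the ILN/ILN and 0 in the wild-type library. Rdh7 and Rdh19 on that chromosome, and Rdh8 on chromosome 9, had 0 in both libraries, where a count of 0 allows up to 3 fragments.

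Genes that carry, sense and remove retinoids were read beside these enzymes. Of 30 such genes with a row, 18 were measured, with a median log2 ratio of 0.08. On the value + 1 scale 2 were at least 1.5-fold higher and none was lower, against 1.90% and 5.39% of all measured genes. Cyp26b1, which degrades retinoic acid, had 3.48 in the ILN/ILN and 1.52 in the wild-type library, 2.29-fold higher (2.01 to 2.62). Rbp7, a retinol-binding protein of fat and endothelium, had 150 in the ILN/ILN and 88.7 in the wild-type library, 1.69-fold higher (1.60 to 1.78). The retinoic acid receptor genes went in different directions, with Rarg 1.37-fold higher (1.29 to 1.45) and Rara 1.48-fold lower (1.34 to 1.63).

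**Figure D3:**
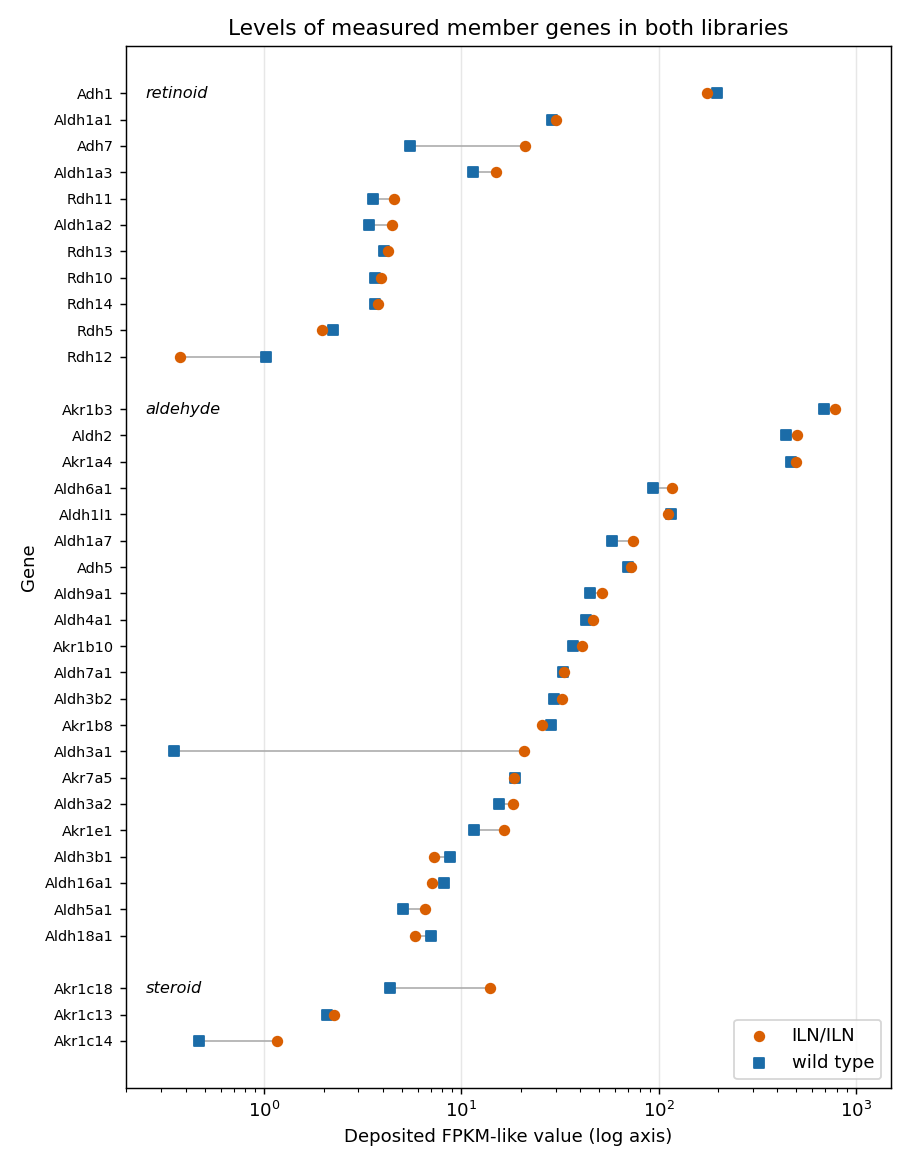
Deposited FPKM-like value (log axis) of each measured gene in the ILN/ILN library (orange circles) and the wild-type library (blue squares), ordered by branch and by ILN/ILN level. Long connecting lines mark Aldh3a1, Adh7, Akr1c18, Akr1c14 and Rdh12, while most other pairs of symbols touch or nearly touch.

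The aldehyde branch held the most abundant genes. Akr1b3, aldose reductase, which turns glucose into sorbitol, had 785 in the ILN/ILN and 691 in the wild-type library. Aldh2, the mitochondrial enzyme that clears acetaldehyde, had 501 in the ILN/ILN and 445 in the wild-type library, and Akr1a4 (Akr1a1 in RefSeq), the aldehyde reductase on the path to vitamin C in mice, had 496 in the ILN/ILN and 468 in the wild-type library. All 3 were slightly higher in the ILN/ILN library, by 1.14-fold (1.11 to 1.17), 1.13-fold (1.11 to 1.14) and 1.06-fold (1.04 to 1.08). With Adh1 they made up 70.6% of the summed value of all 55 genes in the ILN/ILN library and 71.9% in the wild-type library. All 55 genes took 0.439% of the ILN/ILN and 0.397% of the wild-type fragments.

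The level of Akr1b3 depends on a short length. Its deposited length was 350 bases, the shortest of the group, while its longest annotated protein-coding transcript has 1387 bases, and 59.9% of that transcript's 50-base windows also occurred in transcripts of other genes. Its 12414 fragments in the ILN/ILN and 11735 in the wild-type library were fewer than those of Aldh2, with 48289 and 46047, or of Akr1a4, with 29809 and 30175. The ratio of Akr1b3 between the libraries does not depend on that length.

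Enzymes of amino acid and folate metabolism came next in level. Aldh6a1, which acts in valine breakdown, had 116 in the ILN/ILN and 93.5 in the wild-type library, 1.24-fold higher (1.22 to 1.27). Aldh1l1, the cytosolic formyltetrahydrofolate dehydrogenase, had 112 in the ILN/ILN and 115 in the wild-type library, 1.03-fold lower (1.01 to 1.06). Its mitochondrial counterpart Aldh1l2 was below the minimum, with 72 fragments in the ILN/ILN and 153 in the wild-type library, 1.98-fold lower (1.49 to 2.66).

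The pair of proline enzymes stood apart in level. Aldh4a1, which breaks proline down, had 46.3 in the ILN/ILN and 42.8 in the wild-type library, and Aldh18a1, which starts proline synthesis, had 5.83 and 7.03. Aldh18a1 was 1.21-fold lower (1.10 to 1.32), while Aldh4a1 was 1.08-fold higher (1.04 to 1.12), though 45.0% of the Aldh4a1 windows are shared with a single other annotated gene. Aldh5a1, which removes the GABA product succinic semialdehyde, was 1.31-fold higher (1.21 to 1.40). Aldh9a1, an enzyme of carnitine synthesis, was 1.15-fold higher (1.11 to 1.19), and Aldh7a1, an enzyme of lysine breakdown, had 33.0 in the ILN/ILN and 32.8 in the wild-type library. Akr7a5, a reductase of succinic semialdehyde, had 18.4 in the ILN/ILN and 18.8 in the wild-type library, with an interval that included 1. Aldh16a1 had 7.12 in the ILN/ILN and 8.17 in the wild-type library, 1.15-fold lower (1.04 to 1.26).

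The measured genes of 3 sets of paralogs, Aldh1a1 with Aldh1a7, Aldh3b and Akr1b, differed by less than 1.5-fold between the libraries. Other sets held a gene beyond 1.5-fold, as Aldh3a1 beside Aldh3a2, Adh7 beside Adh1 and Akr1c18 beside Akr1c13. Aldh1a7, a rodent paralog of Aldh1a1, had 74.2 in the ILN/ILN and 58.0 in the wild-type library, 1.28-fold higher (1.23 to 1.33), and was more abundant than Aldh1a1 in both libraries. The 2 genes are adjacent on chromosome 19 and share 151 windows of 50 bases. Aldh3b2 was 1.09-fold higher (1.03 to 1.15) and Aldh3b1, of the same subfamily, 1.20-fold lower (1.08 to 1.34), and both share windows with Aldh3b3, which was not analysed here. Among the Akr1b genes of chromosome 6, Akr1b10 had 41.0 in the ILN/ILN and 36.8 in the wild-type library and Akr1b8 had 25.7 and 28.4, while Akr1b7 was not measured, with 2 fragments in the ILN/ILN and 4 in the wild-type library. Akr1e1, a reductase of 1,5-anhydrofructose, was 1.42-fold higher (1.30 to 1.54; 16.4 in the ILN/ILN and 11.5 in the wild-type library), next in ratio after Akr1c14.

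The median log2 ratio of the 21 measured genes of the aldehyde branch was 0.12, with 15 above 0. Besides Aldh3a1, none passed 1.5-fold. By counting error alone, 20 of the 35 measured genes of all branches had an interval above 1, 7 had one below 1, and 8 included 1. The 20 include Aldh3a1, Adh7 and Akr1c18, whose ratios entered the choice of the group. The corresponding shares of all genes with a fragment ratio were 33.2% above and 29.3% below, as counting intervals are narrow at this depth.

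**Figure D4:**
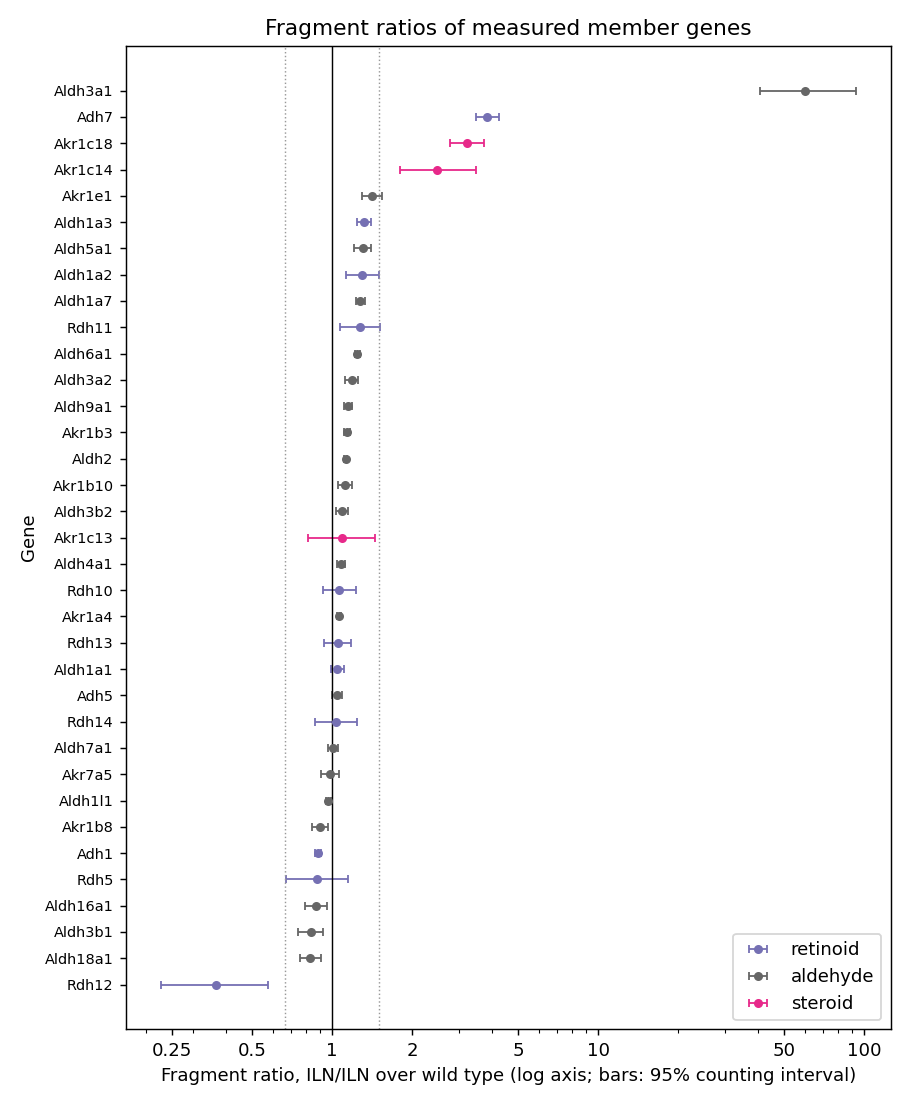
Fragment ratio of each measured gene, ILN/ILN over wild type, on a log axis, with bars for the 95% counting interval and colours for the branch. Dotted lines mark 1.5-fold in each direction. Only Aldh3a1, Adh7, Akr1c18, Akr1c14 and Rdh12 lie outside them.

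Other enzymes that handle carbonyl groups mostly lay within 1.5-fold, as did most measured genes. Of 23 genes with a row, 21 were measured, with a median log2 ratio of 0.13. On the value + 1 scale none was at least 1.5-fold higher and 1 was lower, against 1.90% and 5.39% of all measured genes. The lower gene was Aox3, an aldehyde oxidase, with 13 fragments in the ILN/ILN and 230 in the wild-type library, 16.5-fold lower (9.44 to 31.4). Aoc3, a semicarbazide-sensitive amine oxidase of fat and vessels that releases aldehydes, had 323 in the ILN/ILN and 220 in the wild-type library, 1.47-fold higher (1.45 to 1.49). Cbr2, a carbonyl reductase, was 1.36-fold lower (1.32 to 1.40), and Fmo1, a flavin monooxygenase, 1.42-fold lower (1.37 to 1.46).

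Aldh3a1 is a known target gene of the aryl hydrocarbon receptor, and several Aldh and Akr genes are known targets of Nrf2, the transcription factor of the antioxidant response. Of 23 measured Nrf2 target genes outside the group none passed 1.5-fold on the value + 1 scale, with a median log2 ratio of 0.08. Over all measured genes 1.90% passed it upward and 5.39% downward. Hmox1, haem oxygenase 1, was 1.33-fold lower (1.28 to 1.38) and Srxn1, sulfiredoxin, 1.29-fold higher (1.20 to 1.40). Of 10 genes of the aryl hydrocarbon receptor list, which includes the receptor gene itself, 7 were measured. Of these, 1 was lower and none was higher by 1.5-fold on that scale, against 5.39% and 1.90% of all measured genes. Their median log2 ratio was -0.03. The log2 ratio was above 0 in 3 of them and below 0 in 4. Cyp1b1, a classical target, had 2.73 in the ILN/ILN and 5.65 in the wild-type library, 2.07-fold lower (1.88 to 2.28). Ugt1a7c was 1.42-fold higher (1.13 to 1.80) and Ugt1a6a 1.24-fold higher (1.08 to 1.43). Tiparp, another target, was 1.23-fold higher (1.07 to 1.42). The part of either factor in the value of Aldh3a1 was not tested.

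In the steroid branch 3 of 9 genes were measured. Akr1c18 encodes the 20-alpha-hydroxysteroid dehydrogenase that inactivates progesterone. Its value was 14.0 in the ILN/ILN and 4.37 in the wild-type library, from 708 and 237 fragments, 3.21-fold higher (2.77 to 3.73). It was number 13 in the order of log2 ratios. Akr1c18 made up 78.8% of the branch's summed value in the ILN/ILN and 59.2% in the wild-type library, while the rest of the branch summed to 3.76 in the ILN/ILN and 3.005 in the wild-type library.

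Akr1c14, a 3-alpha-hydroxysteroid dehydrogenase that acts on dihydrotestosterone, is adjacent to Akr1c18 on chromosome 13. It had 125 fragments in the ILN/ILN and 54 in the wild-type library, 2.49-fold higher (1.79 to 3.49), with values of 1.16 and 0.466. On the value + 1 scale its log2 ratio was 0.56, under the 1.5-fold limit. Akr1c13, the neighbour of Akr1c18 on the other side, had 97 fragments in the ILN/ILN and 96 in the wild-type library, 1.09-fold higher (0.810 to 1.45), so no difference was detectable at this depth. Akr1c12, which shares 28.6% of its windows with Akr1c13, had 6 fragments in the ILN/ILN and 19 in the wild-type library, 2.95-fold lower (1.13 to 9.02). Akr1c19 had 11 in the ILN/ILN and 3 in the wild-type library. Akr1c6, Akr1c20 and Akr1c21, at the far end of the cluster, had 0 fragments in both libraries, as did Akr1d1, the steroid 5-beta-reductase. The cluster thus held genes with higher, near equal, lower and undetected levels side by side. On the side of Akr1c21 the nearest measured gene was Akr1e1 of the aldehyde branch, described above at 1.42-fold higher. Past it lay Klf6 and Pitrm1, at 1.28-fold (1.20 to 1.36) and 1.13-fold higher (1.09 to 1.18). On the side of Akr1c14, Ucn3 had 0 fragments in both libraries and Tubal3 had 0 in the ILN/ILN and 1 in the wild-type library. These 4 genes outside the group were chosen after the value of Akr1c18 was seen.

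Steroid-forming enzymes and steroid receptors went in both directions. Of 33 genes with a row, 17 were measured, 10 with a log2 ratio above 0 and 7 below, with a median of 0.05. On the value + 1 scale none was at least 1.5-fold higher and 1, Hsd11b2, was lower, against 1.90% and 5.39% of all measured genes. Hsd11b2, which inactivates glucocorticoids and is known from epithelia, had 24 fragments in the ILN/ILN and 164 in the wild-type library, 6.36-fold lower (4.13 to 10.2). Srd5a1, the steroid 5-alpha-reductase that also starts progesterone breakdown, had 3.35 in the ILN/ILN and 1.96 in the wild-type library, 1.71-fold higher (1.46 to 2.01). Sts, steroid sulfatase, was 1.58-fold lower (1.38 to 1.81). Both passed 1.5-fold by fragments, while on the value + 1 scale their log2 ratios of 0.56 and -0.53 did not. Pgr, the progesterone receptor gene, had 0 fragments in the ILN/ILN and 13 in the wild-type library. Its wild-type value of 0.039 was far under the minimum for measured genes. With 3 fragments as the limit for the ILN/ILN library, it was at least 4.03-fold lower. That bound leaves out the counting error of the 13 wild-type fragments.

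Of the 20 genes that were not measured, 7 had 0 fragments in both libraries and 13 had fragments in at least 1. Their values reached 0.497 in the ILN/ILN and 0.814 in the wild-type library. The highest was Aldh1b1, a mitochondrial aldehyde dehydrogenase, with 50 fragments in the ILN/ILN and 88 in the wild-type library, 1.64-fold lower (1.15 to 2.37). Aldh8a1 had 2 fragments in the ILN/ILN and 0 in the wild-type library.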

How the data were processed

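Polyadenylated RNA of mammary glands was sequenced on 2 lanes per sample, after second-strand synthesis with dUTP and its removal, per the labels' protocols. TopHat 1.4.1, Bowtie 0.12.3, bedtools and build mm9 are named in the submitters' processing notes, with no role or order. The sources used here do not say how genes were counted, with which annotation, or whether strand was used. The deposited FPKM-like value equals a deposited signal per kilobase divided by a constant per library, 45.2 for ILN/ILN and 48.6 for wild type. A deposited log2 column holds log2 of the FPKM-like value plus 1, per the file headers and the values.

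The original signal per kilobase times the deposited length was whole within 0.01 in 100% of values above 0, which gave the fragments. Intervals are exact conditional (Clopper-Pearson) 95% intervals, computed in Python 3.11.15 with scipy 1.17.1, and cover counting error only. A pseudocount of 1 and a minimum value of 1 were used. The interval calculation and the calls were run on simulated counts that held counting error only. That run says nothing about differences between animals. The genes and gene lists were chosen with earlier results of these data known. Every gene of the group could be named, besides up to 4 measured genes per other list with the largest absolute log2 ratio and the markers. All 55 identifiers matched RefSeq (GRCm38.p6), which served for names, neighbours and promoters. Shared windows of 50 bases were searched in all GENCODE M21 transcripts, for 53 genes with a protein-coding transcript. Alternatives covered the pseudocount, the minimum, the scaling, the fold and the estimate.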

Additional observations from a re-analysis of the deposited data

Results flagged for a closer look

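Aldh3a1 has a second deposited estimate, derived from isoforms and not used for its value. It was 235 per kilobase in the ILN/ILN library and 0 in the wild-type library. It is given because it is a column outside the measurement used above. The original estimate was 940 per kilobase in the ILN/ILN and 16.8 in the wild-type library, from 25 fragments in the wild-type library, so the 0 there does not show that the derived signal was absent. It comes from the same gene and libraries as the value above and is no independent evidence.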

How the results depend on the processing

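Under the alternatives tried, every recomputed median of the group and its branches, and the log2 ratios of Aldh3a1, Adh7 and Akr1c18, stayed above 0. The group median includes all 3 of these genes and each branch median includes 1, and their ratios entered the choice of the group. With a pseudocount of 0.1, 1 gene, Rdh12, was at least 1.5-fold lower and 4 were higher, in place of 0 and 3. With upper quartile scaling the median log2 ratio of all measured genes of the group was 0.055, and that of all measured genes of the tables -0.035. The median of the retinoid branch ranged from 0.011 with upper quartile scaling to 0.22 with a minimum of 5, and that of the aldehyde branch from 0.065 with upper quartile scaling to 0.12. The median of the steroid branch rests on 3 genes and ranged from 0.17 with a pseudocount of 5 to 1.48 with a minimum of 5, which leaves Akr1c18 alone. Aldh3a1 had a log2 ratio of 5.55 with a pseudocount of 0.1 and 2.27 with a pseudocount of 5, because its wild-type value is under 1. No paired analysis was possible because each genotype had 1 library. Depth limits the genes with few fragments, such as Akr1c12, Akr1c19 and most Rdh genes of chromosome 10.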
